A study of Mus musculus with 14 samples.

Results

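PRDM16 peaks deep inside genes were the 6135 of 17587 wild-type (WT) peaks (34.9%) whose summit lay inside a protein-coding gene and more than 10000 bp from both ends of every protein-coding gene of GRCm38, and that shared no base with a peak of the knockout. They were chosen by position and by lack of overlap with the knockout, and not by their values in the ventricles. Their height was limited by the calling of WT peaks and by the overlap filter, as given below for folds under 2. Another 33 WT peaks in such positions (0.535%) overlapped a knockout peak and were set aside, beside 1.12% of all WT peaks with such an overlap. The knockout list held only 330 peaks, from 1 library, so that lack of overlap alone does not show loss of binding. The strongest peaks set aside lay in Dpp9 (authors' fold enrichment 20.2), Ano2 (18.9) and Plxdc2 (9.63). The remaining WT peaks served for comparison: 2884 within 1000 bp of a gene end, 3634 between 1000 and 10000 bp from a gene end, and 4901 outside genes. These 3 classes kept their peaks that overlapped a knockout peak, which were 7, 31 and 126, except where stated.

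PRDM16 was immunoprecipitated from ventricles of C57BL/6 embryos at E13.5 (embryonic day), and the DNA was sequenced (ChIP-seq). WT embryos, whose genetic manipulation the labels give as Mock, provided 2 ChIP libraries of whole ventricles, 2 of the left ventricle (LV) and 2 of the right ventricle (RV). Embryos with a conditional knockout of Prdm16 (Prdm16cKO) provided 1 library of whole ventricles, and each of the 7 ChIP libraries had an input library without antibody, 7 in all. Whole-ventricle libraries, from hearts without atria, pooled 3 hearts of a single genotype each, and LV and RV libraries pooled 10 to 12 ventricles each. The sources used here do not name the Cre driver or the cells in which it deletes Prdm16. The peak lists have no values per library, while 2 whole-read counts per ventricle were worked out for every WT peak from the deposited values of LV and RV. The recovered libraries are named LV-A, LV-B, RV-A and RV-B, and reads are given in that order throughout. Summed over all WT peaks they held 330443, 184244, 281797 and 267808 reads. A deep peak held a median of 9, 5, 8 and 8 reads, and 41, 139, 46 and 58 deep peaks had 0 reads. Replicates are pools of separate tissue, so that a test between ventricles measures the spread between pools. Peaks carry no level of expression, and the tissue label was not checked by RNA.

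PRDM16 is a zinc-finger transcription factor of the PR domain family that acts together with chromatin regulators and corepressors. In the embryonic heart it is known for promoting the compact, outer layer of ventricular muscle, and in fat for the brown adipocyte program. Sequence deep inside a gene is mostly intron and can hold enhancers, which act on promoters from a distance, and alternative promoters, from which shorter transcripts of the host gene start. Whether a given peak lies in an exon or an intron was not analysed here, because no genome annotation with exons was used.

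Some deep peaks sat on start sites of their own host gene, and there the bound sequence can be shown. The following 6 windows of GRCm38.p6, credited to RefSeq, each run from 250 bases before to 50 bases after an internal start, and the capitals mark the 21 bases centred on the PRDM16 summit. They were chosen after the values were seen, from internal starts with the summit inside the window: 4 muscle genes, the energy sensor subunit Prkag2, and Mecom, which encodes a PR domain relative of PRDM16. The window of Mylk3, a cardiac myosin light chain kinase, is chr8:85365275-85365574 on the minus strand. That of Speg, a striated muscle kinase, is chr1:75399835-75400134 on the plus strand. The window of Prkag2, a regulatory subunit of AMP-activated kinase, is chr5:24995704-24996003 on the minus strand, and that of Myo18a, an unconventional myosin, is chr11:77801048-77801347 on the plus strand. Mecom is shown at chr3:30013155-30013454 on the minus strand and Dmd, which encodes dystrophin, at chrX:82948620-82948919 on the plus strand.
Mylk3: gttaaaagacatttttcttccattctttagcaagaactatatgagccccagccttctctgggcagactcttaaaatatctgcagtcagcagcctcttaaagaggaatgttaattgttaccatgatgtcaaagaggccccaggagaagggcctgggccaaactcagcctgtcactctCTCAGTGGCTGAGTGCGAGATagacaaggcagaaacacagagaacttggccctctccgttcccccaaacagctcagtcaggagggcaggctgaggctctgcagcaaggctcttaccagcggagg
Speg: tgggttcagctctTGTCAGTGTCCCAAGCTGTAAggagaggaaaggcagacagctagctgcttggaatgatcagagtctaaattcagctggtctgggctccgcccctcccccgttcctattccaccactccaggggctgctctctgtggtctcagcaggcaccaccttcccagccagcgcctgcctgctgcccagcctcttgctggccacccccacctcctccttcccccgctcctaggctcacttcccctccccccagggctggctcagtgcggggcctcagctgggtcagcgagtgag
Prkag2: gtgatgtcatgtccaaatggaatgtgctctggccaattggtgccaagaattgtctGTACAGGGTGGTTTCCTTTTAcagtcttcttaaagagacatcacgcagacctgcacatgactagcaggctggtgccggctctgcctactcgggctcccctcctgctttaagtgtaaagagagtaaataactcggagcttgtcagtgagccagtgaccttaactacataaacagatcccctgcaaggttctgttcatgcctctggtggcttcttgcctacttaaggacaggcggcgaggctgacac
Myo18a: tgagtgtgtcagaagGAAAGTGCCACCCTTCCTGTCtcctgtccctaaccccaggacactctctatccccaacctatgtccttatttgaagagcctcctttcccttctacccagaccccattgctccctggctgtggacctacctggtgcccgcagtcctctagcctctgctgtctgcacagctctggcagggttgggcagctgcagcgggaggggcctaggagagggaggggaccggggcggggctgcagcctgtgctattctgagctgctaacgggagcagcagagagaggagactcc
Mecom: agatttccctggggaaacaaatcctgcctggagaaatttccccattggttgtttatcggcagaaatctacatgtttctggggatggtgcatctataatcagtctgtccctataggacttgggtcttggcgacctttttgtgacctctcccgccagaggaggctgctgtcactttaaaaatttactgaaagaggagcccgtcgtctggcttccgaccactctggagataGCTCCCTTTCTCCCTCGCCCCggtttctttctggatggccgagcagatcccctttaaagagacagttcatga
Dmd: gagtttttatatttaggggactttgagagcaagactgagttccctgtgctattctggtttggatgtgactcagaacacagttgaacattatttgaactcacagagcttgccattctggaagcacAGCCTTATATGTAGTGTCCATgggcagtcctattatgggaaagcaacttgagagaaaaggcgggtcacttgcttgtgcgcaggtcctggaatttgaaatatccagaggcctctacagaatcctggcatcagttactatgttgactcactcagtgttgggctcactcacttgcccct
The windows of Mylk3, Speg and Prkag2 hold the letters GGAATG of a TEAD motif on either strand, outside the capitals. TEAD factors are the DNA-binding partners of YAP in heart muscle. Those of Speg and Myo18a hold GGGCGG, a GC box bound by SP and KLF factors. At Myo18a the letters AAGTG, the core of the NKX2-5 motif, fall within the capitals. The peaks had authors' fold enrichments of 9.26 at Mylk3, 6.20 at Speg, 4.92 at Prkag2, 9.97 at Myo18a, 5.02 at Mecom and 4.58 at Dmd.

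Deep peaks were spread over most of the length of genes and were denser than peaks outside genes. They numbered 8.33 per Mb of the 736 Mb of sequence that lies as deep, against 36.4 per Mb within 1000 bp of gene ends, 7.69 per Mb between 1000 and 10000 bp, and 3.49 per Mb outside genes. For densities by distance, peaks that overlapped a knockout peak were left out both inside and outside genes. At 10 to 20 kb from the nearest gene end the density was 8.87 per Mb inside genes and 5.61 outside, a ratio of 1.58. The ratio was 1.85 at 20 to 50 kb, 2.21 at 50 to 100 kb and 2.62 beyond 100 kb, where 1180 deep peaks gave 5.58 per Mb against 2.13. At each of these 4 distances the inside density was the higher. The list is a single set of WT peaks without values per library, and no test of these densities over samples was possible. Sequence length counted every base between the first and last gene of each chromosome, with assembly gaps and repeats not removed. Whether that moved the ratios was not tested.

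**Figure D1:**
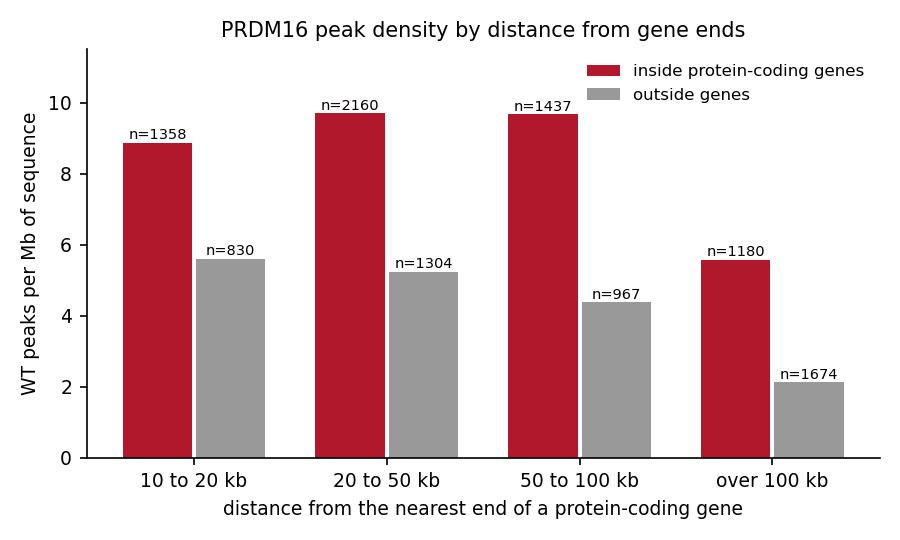
WT PRDM16 peaks per Mb of sequence (bars from 0) by distance from the nearest end of a protein-coding gene, inside genes (red, deep peaks) and outside genes (grey), with peak numbers above the bars. Inside genes the density is 8.87, 9.70, 9.67 and 5.58 per Mb, above the outside value at every distance. Peaks that overlapped a knockout peak are left out on both sides.

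Along the gene the density changed little. Among 4724 deep peaks with a host gene of known strand, the 5 equal parts of the gene from 5′ to 3′ held 7.44, 8.26, 8.67, 8.17 and 8.01 per Mb of deep sequence. The median deep peak lay 41489 bp from the nearest gene end and the farthest lay 805501 bp away. At the distance limit itself, peaks in Dapp1 (10001 bp, fold 4.84) and Fig4 (10002 bp, 16.3) counted as deep, while those in or near Rnaseh2b (9999 bp, 8.17) and Slc2a1 (9997 bp, 4.84) did not.

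Deep peaks were close to peaks outside genes in the authors' fold enrichment, and above peaks at gene ends, as a description without a test. Their authors' fold enrichment had a median of 4.11 with quartiles of 3.47 and 5.15, against 3.58 within 1000 bp of gene ends, 3.99 between 1000 and 10000 bp and 4.17 outside genes. A fold of at least 10 was reached by 191 deep peaks (3.11%), 1.77% of those at gene ends and 3.69% of those outside genes. Within genes the median did not move with depth, at 4.05, 4.15, 4.10 and 4.09 from the nearest to the farthest distance class. Deep peaks had a median width of 301 bp, against 282.5 bp at gene ends. The fold came from whole-ventricle libraries, while reads are known for the LV and RV libraries. Those reads ranked deep peaks and peaks at gene ends the other way. Peaks at gene ends held medians of 13, 6, 11 and 9 reads in LV-A, LV-B, RV-A and RV-B. At deep peaks the medians were 9, 5, 8 and 8, and outside genes they were 10, 5, 8 and 8.

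**Figure D2:**
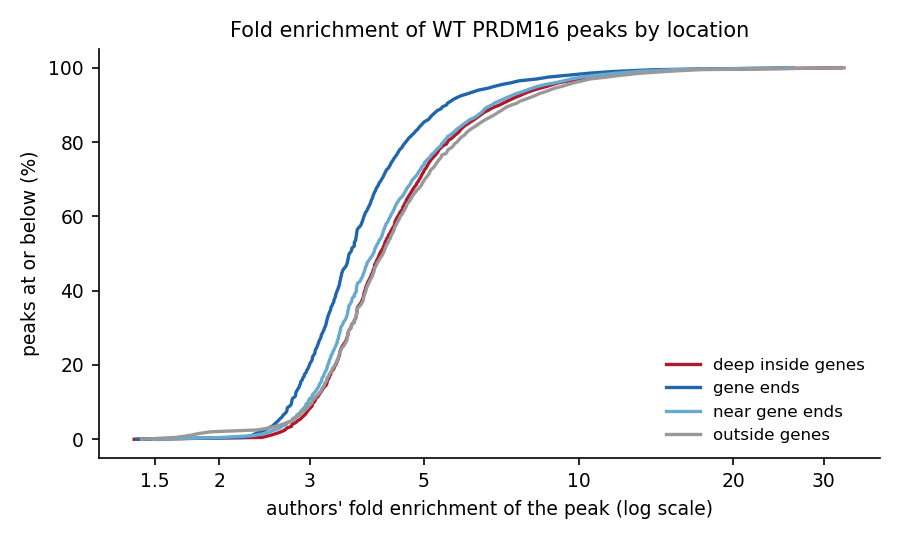
Share of WT PRDM16 peaks (%) at or below each authors' fold enrichment (log axis), by location. The curve of deep peaks (red, median 4.11) runs beside that of peaks outside genes (grey, 4.17), and the curve of gene ends (dark blue, 3.58) lies to the left.

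Among the 10 highest deep peaks were those in Alk (fold 32.4), a receptor tyrosine kinase, Prdm16 itself (25.7), Togaram2 (23.2), Cerk (22.6), a ceramide kinase, and Slc25a13 (22.3), the mitochondrial aspartate-glutamate carrier. Others of the 10 lay in Arhgap28 (20.4), a GTPase-activating protein, Fbn2 (18.5), a fibrillin of extracellular microfibrils, Ninj2 (18.4) and Ermard (18.4). The Alk peak, chr17:72275151-72276189, lies 329182 bp from the nearest gene end. It held 163, 77, 112 and 107 reads in LV-A, LV-B, RV-A and RV-B, and the authors' deposited table gave 118 normalized reads in LV and 101 in RV. After scaling both LV libraries (121 and 113) lay just above both RV libraries (97.0 and 103), a difference that limma did not call (adjusted p = 0.959). The Slc25a13 peak, chr6:6184983-6186945, held 237, 85, 246 and 180 reads in the same order (151 and 194 normalized), and there the ventricles overlapped.

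Genes with deep peaks were long, and a small number of them held many. A deep peak lay in 2445 of the 9886 genes that have any sequence deep enough (24.7%), and the median host gene was 115 kb long against 40.4 kb for the other genes of that set. Of the host genes, 1156 (47.3%) held exactly 1 deep peak, while 327 (13.4%) held at least 5 and together 2462 deep peaks (40.1%). The share of genes with a deep peak was 7.40% up to 50 kb of length, 26.9% at 50 to 100 kb, 49.6% at 100 to 200 kb, 68.3% at 200 to 500 kb and 74.0% above 500 kb. Per Mb of deep sequence the same classes held 8.54, 9.40, 10.6, 9.23 and 4.25 deep peaks, with the lowest density in the longest genes. Neighbouring deep peaks of a gene were a median of 15360.5 bp apart, and 2484 deep peaks (40.5%) had another within 10000 bp in the same gene. A WT peak at an own end was present in 619 host genes (25.3%) and in 1103 of 7441 genes without a deep peak (14.8%).

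The genes with most deep peaks were Rbm20 (24), a splicing regulator of titin, Gse1 (24), found with corepressor complexes, Msi2 (22), a Musashi RNA-binding protein, Pakap (21), an anchor of protein kinase A, Nav2 (18), Prdm16 (17), Auts2 (17), a partner of Polycomb proteins, and Tns1 (16), a tensin of focal adhesions, whose count was shared by Sdk1, Bach2 and Esrrg. Rbm20, 206 kb long on chromosome 19, held 12.9 deep peaks per 100 kb of deep sequence. Auts2, 1106 kb long, held 1.57. Among genes with at least 5 deep peaks the densest was Hdac5, a histone deacetylase, with 5 in 14.4 kb (34.7 per 100 kb), followed by Fbxo32, a muscle ubiquitin ligase (31.6), Vangl1, a planar cell polarity protein (19.3), and Shb, an adaptor protein (17.1).

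**Figure D3:**
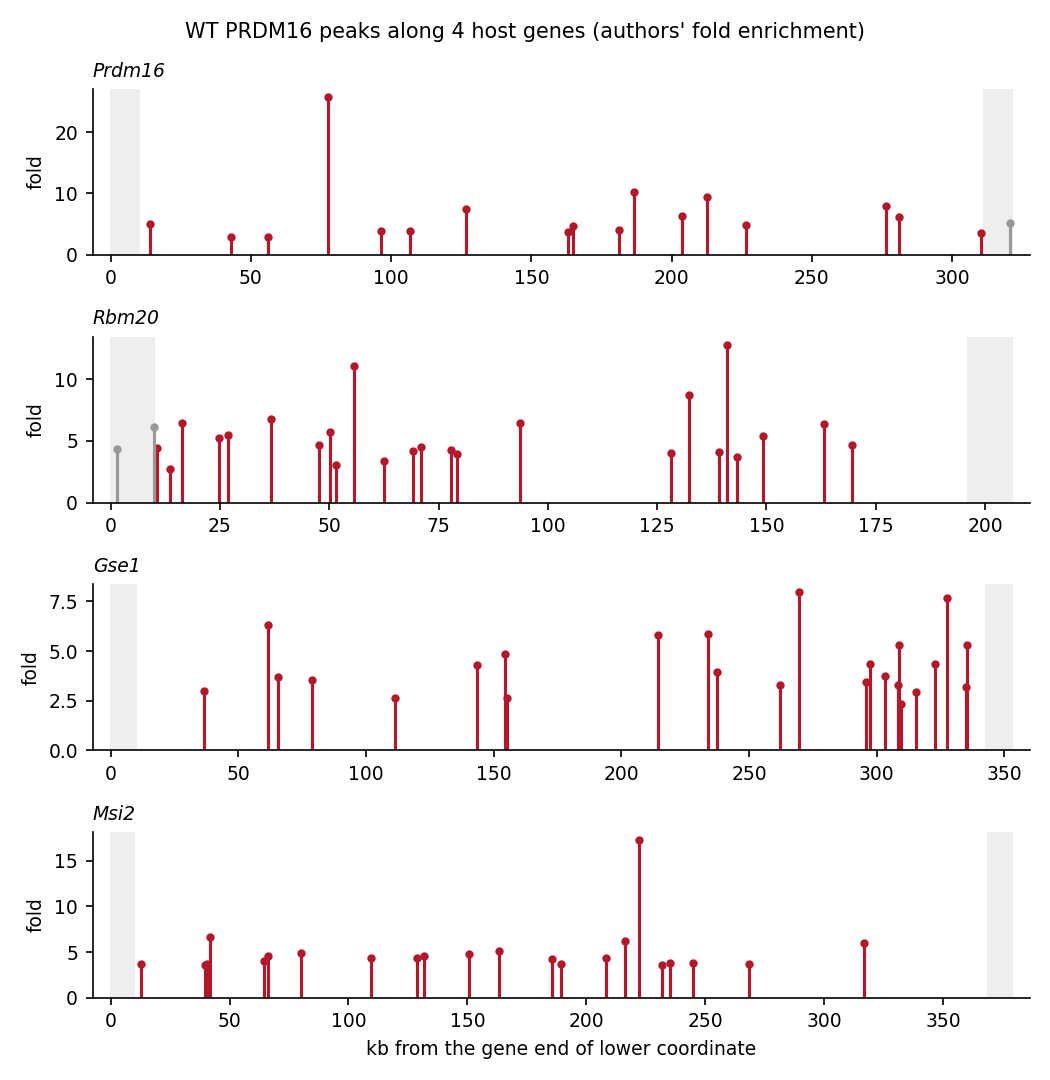
Position (kb from the gene end of lower coordinate) and authors' fold enrichment of WT PRDM16 peaks in Prdm16, Rbm20, Gse1 and Msi2, with deep peaks in red, other WT peaks in grey and the outer 10 kb of each gene shaded. Deep peaks number 17, 24, 24 and 22 and run along most of each gene, with a single peak of fold 25.7 standing above the others in Prdm16.

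Prdm16 is the gene for the factor itself, and 17 of its 18 WT peaks were deep, with folds from 2.87 to 25.7. Its strongest peak, chr4:154392913-154394483, held 320, 108, 251 and 185 reads in LV-A, LV-B, RV-A and RV-B. After scaling these were 238, 158, 217 and 178 normalized reads, and the ventricles overlapped. A weaker peak of fold 9.43, chr4:154528336-154528894, held more reads than any other deep peak on average, with 305, 135, 107 and 318. There the RV libraries stood far apart (92.7 and 307 normalized reads) and the LV libraries (227 and 198) lay between them. The other peaks of Prdm16 included those of fold 10.3 (87, 38, 53 and 64 reads) and 7.51 (67, 21, 67 and 50 reads).

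Peaks inside heart genes were described by 15 lists, which were chosen with earlier results of these data known. For a reference, all genes with deep sequence had a deep peak in 24.7% of cases and 8.33 deep peaks per Mb. That share depends on length, at 7.40% for genes up to 50 kb and 68.3% for genes of 200 to 500 kb. The lists were not matched for length. No test was made of any list, and nothing here sets a list apart from other active genes. Gene lists of contraction came first. In the sarcomere and Z-disc list 14 of 19 genes with deep sequence had a deep peak, with 67 peaks and 33.5 per Mb, of which 24 peaks were in Rbm20 (23.7 per Mb without it). The strongest peaks of its other genes lay in Tnni1 (fold 13.3), the troponin I of the fetal heart, Ldb3 (12.3), a Z-disc PDZ protein, and Myo18b (11.9), an unconventional myosin of muscle. The Tnni1 peak, chr1:135799670-135801143, lies 10182 bp from the nearest gene end and held 138, 68, 135 and 90 reads in LV-A, LV-B, RV-A and RV-B (102 normalized reads in each ventricle). Myh7 and Myh6, the myosin heavy chains, are short genes with 1 weak deep peak each (3.02 and 2.70). Tpm1, Myom2, Myoz2 and Flnc were among the genes with none.

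Calcium handling and ion channel genes had deep peaks in 19 of 23 cases, with 86 peaks and 16.5 per Mb. The strongest lay in Jph2 (fold 17.2), which tethers the sarcoplasmic reticulum to the cell membrane and held 6 deep peaks in 41.8 kb, and in Kcnh2 (15.9), a potassium channel of repolarization. Camk2d (14.9), a calcium-dependent kinase with 8 deep peaks, and Sorbs2 (13.7), an adaptor with 11, came next. The Jph2 peak, chr2:163353615-163354582, held 104, 42, 80 and 67 reads in LV-A, LV-B, RV-A and RV-B. The Kcnh2 peak, chr5:24337038-24338015, held 104, 53, 83 and 68. The authors' normalized values were 70.0 in LV and 67.5 in RV at Jph2, and 78.0 and 69.2 at Kcnh2. Cacna1c, the L-type calcium channel, held 13 deep peaks and Kcnq1, a potassium channel, 14.

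In the list of cardiac transcription factors 16 of 20 genes had a deep peak, with 93 peaks and 33.1 per Mb (30.3 without Prdm16). After Prdm16 the strongest were in Myocd (fold 14.5), a coactivator of serum response factor, Meis2 (9.16), a homeobox factor, and Tbx5 (9.04), a T-box factor of the left ventricle. The Myocd peak, chr11:65209385-65210155, held 81, 31, 66 and 61 reads in LV-A, LV-B, RV-A and RV-B. Tead1 held 11 deep peaks, as did Foxp1, and Gata4 held 3. Tbx18, Tbx20, Mef2d and Hopx had none.

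The compact myocardium list, genes of the outer muscle layer, had deep peaks in 9 of 13 genes, with 53 peaks and 14.96 per Mb (11.1 without Prdm16). They included Hk1 (fold 11.4), a hexokinase, Casz1 (7.25), a zinc-finger factor of heart development with 7 deep peaks, and Fstl4 (5.88). The Casz1 peak, chr4:148876706-148877557, held 30, 16, 38 and 31 reads in LV-A, LV-B, RV-A and RV-B. Tbx20, Ccnd2, Fgfr2 and Erbb2 of this list had no deep peak. Genes of the trabecular, inner layer and of the conduction system had deep peaks in 4 of 8 genes, with 7 peaks and 6.95 per Mb, which became 9.11 without Sema3a. They included Sema3a (8.32), a guidance cue, Cpne5 (6.67), and Hcn4 (5.34), the pacemaker channel. Gja5, Slit2, Cntn2 and Etv1 had none.

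The list of brown fat and fatty acid oxidation genes had a deep peak in 7 of 16 cases, with 47 peaks and 24.3 per Mb. Most of these peaks lay in nuclear receptor partners and regulators: 16 in Esrrg (highest fold 8.65), an orphan nuclear receptor, 15 in Ppargc1a (6.98) and 7 in Ppargc1b (13.1), coactivators of mitochondrial genes, and 4 in Ebf2 (7.82), a factor of brown fat. The Esrrg peak, chr1:187836337-187837253, held 72, 28, 43 and 47 reads in LV-A, LV-B, RV-A and RV-B. Enzymes and carriers of fatty acid use, which are shorter genes, held 2 in Cd36, 2 in Acsl1 and 1 in Cpt1a. Per 100 kb of deep sequence that was 2.29, 4.44 and 2.30, beside 2.73 in Esrrg, 2.34 in Ppargc1a, 7.84 in Ppargc1b and 2.25 in Ebf2.

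Signalling genes were also covered. TGF-beta and BMP signalling had deep peaks in 12 of 22 genes, with 30 peaks and 16.1 per Mb, of which 9 were in Smad3 (11.8 per Mb without it). Its receptors were led by Tgfbr3 (fold 11.2), a coreceptor, and Tgfbr2 (6.83), and Ltbp1 (6.40), which stores the latent ligand, held 6 peaks, while Smad3 (9.27) transduces the signal. Wnt and Notch signalling had 11 of 21 genes, with 49 peaks and 21.2 per Mb. The strongest lay in Ror1 (10.1), a Wnt5a receptor with 8 deep peaks, Maml3 (6.34) with 15 and Maml2 (5.39) with 5, both coactivators of Notch, and Ror2 (5.22).

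Chromatin regulators and corepressors, among which partners of PRDM16 belong, had deep peaks in 16 of 25 genes, with 62 peaks and 14.5 per Mb. They were led by Arid1b (fold 9.71), a BAF complex subunit with 10 deep peaks, Prdm1 (9.21), another PR domain factor, Zmiz1 (8.94), a coactivator, and Smyd3 (7.56), a methyltransferase. The Prdm1 peak, chr10:44478137-44478621, held 36 and 18 reads in LV and 18 and 10 in RV (27.1 and 13.1 normalized). Ski, a corepressor, held 4, Ctbp2, a corepressor that binds PRDM16, held 5, and Mecom held 2.

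Lists of other cell types of the ventricle and of other organs ranged from 0 to 18.7 deep peaks per Mb, beside 8.33 for all genes with deep sequence, and their differences were not tested. Endothelium and endocardium genes had deep peaks in 11 of 15 cases, with 23 peaks and 18.7 per Mb, led by Pecam1 (fold 9.11), Nrp1 (7.59) and the ETS factors Erg (5.73) and Ets1 (5.09). The Pecam1 peak, chr11:106677737-106678320, held 36, 20, 21 and 28 reads in LV-A, LV-B, RV-A and RV-B. Epicardium, fibroblast and smooth muscle genes had 4 peaks in 4 of 13 genes (9.38 per Mb), in Myh11 (8.49), Wt1 (8.11), Pdgfrb (4.40) and Vcan (3.13). Erythroid and immune genes had 4 of 11 (10.7 per Mb, 6.70 without Bcl11b), with Ptprc (6.27), Bcl11b (5.72), Ebf1 (5.38) and Runx1 (4.04). Of 8 hepatocyte genes with deep sequence, 0 had a deep peak in 0.424 Mb. In whole tissue, more cells with PRDM16 at a site and more PRDM16 per cell cannot be told apart.

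Neuronal and adhesion genes had deep peaks in most cases, at densities below the 8.33 per Mb of all genes with deep sequence, and neither list was tested. All genes over 500 kb, for comparison, had a deep peak in 74.0% of cases and 4.25 per Mb. Cell adhesion and junction genes had 19 of 26, with 99 peaks but 7.33 per Mb. They were led by Pkp2 (fold 12.9), a plakophilin of desmosomes, Cdh13 (12.5), Cdh2 (12.1), the cadherin of heart muscle, and Itga9 (9.10). Axon guidance and neuronal adhesion genes had 21 of 26, with 94 peaks in 27.1 Mb and 3.46 per Mb. The strongest lay in Slit3 (10.5), a guidance ligand, Ptprn2 (10.1), a phosphatase-like protein of secretory granules, and the adhesion molecules Opcml (9.57) and Negr1 (9.11).

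**Figure D4:**
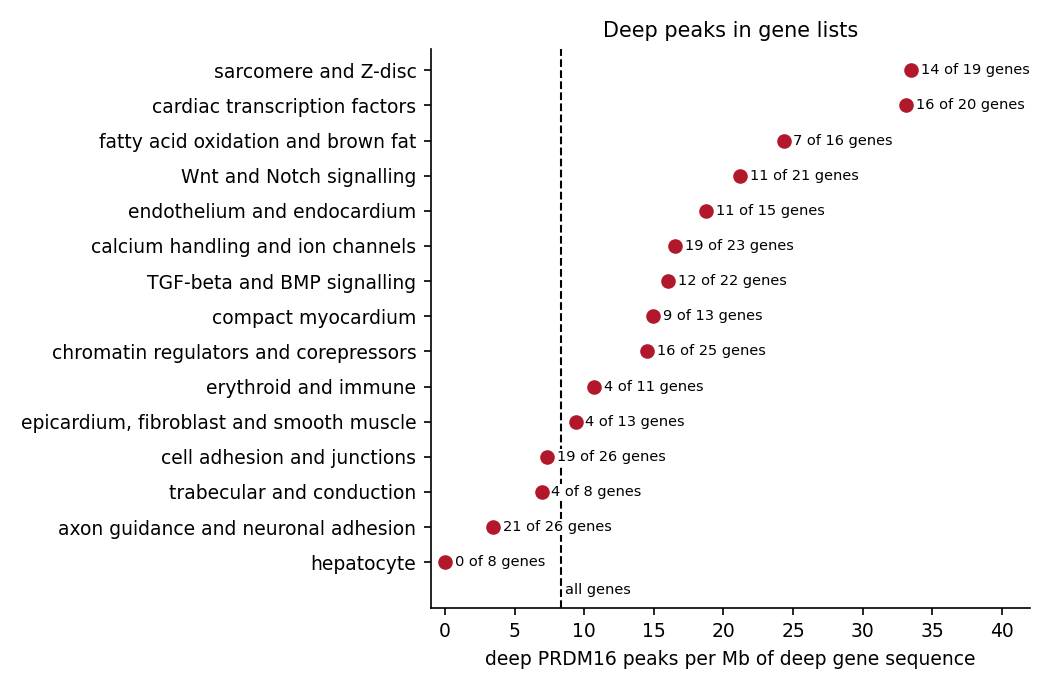
Deep PRDM16 peaks per Mb of deep gene sequence in 15 gene lists (points), with the number of genes that hold a deep peak of those with deep sequence. The dashed line is the value for all genes, 8.33 per Mb, and the lists run from 0 in hepatocyte genes to 33.5 in sarcomere genes.

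Deep peaks at internal start sites, such as the 6 shown above, were few. Of all deep peaks, 149 (2.43%) overlapped a window around a RefSeq start, against 47.9% of peaks at gene ends, 5.88% of those between 1000 and 10000 bp, and 2.53% of those outside genes that overlapped no knockout peak. At starts of the host gene itself lay 112 deep peaks in 105 genes, which overlapped the windows of 115 of 1468 such starts (7.83%). The summit itself lay inside the window at 64 of the 115. Of protein-coding starts near an outer gene end, 8.46% had a WT peak. Starts of long noncoding RNA genes inside a protein-coding gene were overlapped by 42 deep peaks, some of them also counted among the 112, at 47 of 1760 such starts (2.67%). The strongest peaks at own starts lay in Asb2 (fold 12.0), a muscle ubiquitin ligase adaptor, Sertad2 (11.6) and Syne1 (11.4), a nesprin of the nuclear envelope. The Asb2 peak held 34, 13, 40 and 37 reads in LV-A, LV-B, RV-A and RV-B. The Mylk3 peak held 48, 32, 36 and 23 reads, and after scaling both LV libraries lay above both RV libraries (log2 of RV over LV -0.62, limma adjusted p = 0.800). At Myo18a, with 50, 15, 47 and 46 reads, both RV libraries lay above (log2 0.55, limma adjusted p = 0.818).

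Internal starts with a deep peak were richer in G and C than those without. The median GC content was 59.0% in the 115 windows with a peak and 51.7% in 1353 without a WT peak, against 56.3% in all 21263 protein-coding windows. Protein-coding starts within 1000 bp of a gene end that had a WT peak were richer still, at 63.2%. The GC box GGGCGG occurred in 71.8% of those 1470 windows. The TEAD letters GGAATG, on either strand, occurred in 25 of the 115 windows (21.7%), in 15.3% of internal windows without a peak and in 13.6% of all protein-coding windows. The GC box GGGCGG occurred in 45.2%, 30.8% and 46.2%, and the GATA letters AGATAA in 9.57%, 9.68% and 9.65%. The AP-1 letters TGANTCA occurred in 10.4%, 8.65% and 6.99%, and the NKX2-5 letters AAGTG in 41.7%, 48.0% and 45.2%. E-boxes (CANNTG), which include the HAND and TWIST letters CATCTG, were found in 66.96%, 75.4% and 69.0%. Both strands were searched for every motif. A match of letters is not a binding site, and the peaks away from start sites were not searched because their sequence was not used here. Of 1005 microRNA hairpins in RefSeq, 0 overlapped a deep peak.

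The comparison of LV with RV asked whether the ventricles bind PRDM16 differently at the same peaks. On values scaled per library, the median difference was near 0 at deep peaks, as it was at all WT peaks. A median of scaled values cannot show a shift between ventricles that all peaks share. The median log2 of RV over LV in the authors' deposited table was -0.01 over 6135 deep peaks (SD 0.64 across peaks), beside -0.0028 over all WT peaks (SD 0.63), and 3121 deep peaks (50.9%) had the higher value in LV. Between the libraries of a single ventricle the log2 of normalized reads differed with an SD of 0.84 in LV and 0.76 in RV across deep peaks, and between libraries of different ventricles with an SD of 0.75 to 0.89. The spread within a ventricle was thus about as wide as that between ventricles. Deep peaks took 26.6% (LV-A), 24.0% (LV-B), 26.4% (RV-A) and 25.05% (RV-B) of the reads within WT peaks. The ventricles overlapped, and an exact two-sided permutation test gave p = 1.0, where 2 against 2 libraries cannot go below 0.333.

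In the authors' deposited table, 0 deep peaks passed an adjusted p of 0.05, as did 0% of all 17587 regions, and the smallest adjusted p of a deep peak was 0.444. That table lists 32 deep peaks at an unadjusted p under 0.05 (0.522%, background 0.483%), with 23 higher in LV (background 0.341%) and 9 higher in RV (background 0.142%). limma on the whole reads (n = 2 pools per ventricle), with Benjamini-Hochberg adjustment over all regions, called 2 deep peaks, both higher in LV, of 5 regions in all (0.0284%). At an unadjusted p under 0.05 limma gave 391 deep peaks (6.37%, background 6.32%), of which 189 were higher in LV (background 3.13%) and 202 higher in RV (background 3.18%). A log2 of RV over LV of -1 or less was listed for 344 deep peaks in the authors' deposited table (5.61%, background 5.24%), and of 1 or more for 349 (5.69%, background 5.39%). Both LV libraries lay above both RV libraries at 1167 deep peaks (19.0%, background 17.9%), and both RV libraries lay above both LV libraries at 1077 (17.6%, background 17.6%). These shares were near those of all WT peaks.

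The called peak in Ptprn2, a protein of secretory granules, chr12:116776410-116776947, held 63 and 32 reads in LV-A and LV-B, and 8 and 9 in RV-A and RV-B. Both LV values were far above both RV values, with a log2 of RV over LV of -2.45 (SE 0.350, limma adjusted p = 0.00126). It lies 290995 bp from the nearest gene end. The called peak in St18, a zinc-finger factor, chr1:6805028-6805653, held 45, 22, 8 and 8 reads, again without overlap (log2 -2.03, SE 0.369, limma adjusted p = 0.0186). Both calls ended on leaving out RV-A or RV-B, when limma called 0 deep peaks, while the log2 stayed at -2.59 to -2.31 for Ptprn2 and at -2.09 to -1.96 for St18. St18 also missed the threshold at a pseudocount of 0.1 (limma adjusted p = 0.125), where Ptprn2 passed (0.0157). On leaving out LV-A limma called 31 deep peaks (10 toward LV, 21 toward RV), and on leaving out LV-B it called 8.

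Other deep peaks of smallest authors' p did not pass with limma at the same setting. The peak in Tenm4, a teneurin of the cell surface, chr7:96660750-96662218, held 190 and 89 reads in LV and 53 and 46 in RV (log2 -1.57, limma adjusted p = 0.0654). That in Opcml, a neural adhesion molecule, chr9:27935252-27935723, held 5 and 7 reads in LV and 36 and 29 in RV (log2 2.07, limma adjusted p = 0.0654). The libraries of the ventricles did not overlap at either, and both passed with limma among regions of at least 8 reads on average (adjusted p = 0.0428 and 0.0112). In Gab1, a docking protein of growth factor receptors, the peak had 12 and 7 reads in LV and 0 in both RV libraries, and its limma adjusted p was 0.155. Peaks higher in RV were seen in BC052040 (10, 6, 33 and 22 reads in LV-A, LV-B, RV-A and RV-B; limma adjusted p = 0.290) and in Tnik, a kinase of Wnt signalling (4, 2, 12 and 18; 0.461). In Fam81b the counts were 0 and 0 in LV and 3 and 7 in RV (limma adjusted p = 0.644). Counts of this size limit what can be seen at a single peak.

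**Figure D5:**
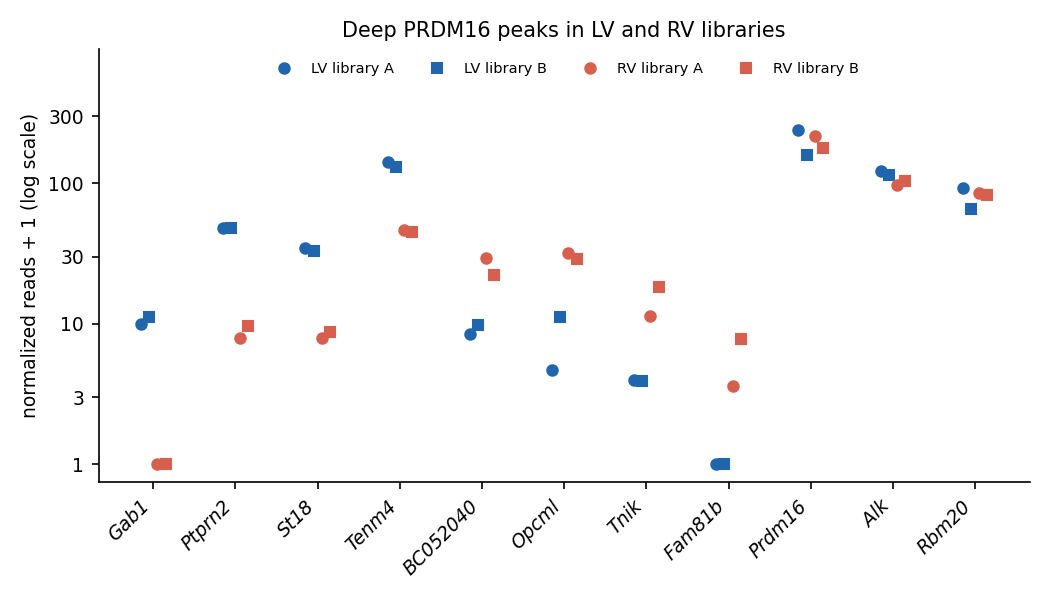
Normalized reads plus 1 (log axis) in the LV libraries (blue) and the RV libraries (red), with circles for A and squares for B, at the 8 deep peaks of smallest authors' p and at the strongest peaks of Prdm16, Alk and Rbm20. LV lies above RV in Gab1, Ptprn2, St18 and Tenm4, RV lies above LV in BC052040, Opcml, Tnik and Fam81b, and the ventricles overlap in Prdm16 and Rbm20.

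Taken by list, the median log2 of RV over LV differed in sign between lists, and no list was tested. Between single LV and RV libraries, the median over all 6135 deep peaks ranged from -0.08 to 0.05. No such range was worked out for a list. Lists hold far fewer peaks, so that their medians cannot be judged by it. The medians by list ran from -0.20 in endothelium and endocardium (15 of 23 deep peaks higher in LV) to 0.17 in axon guidance and neuronal adhesion (38 of 94 higher in LV). Cardiac transcription factors had -0.13 (57 of 93 higher in LV), compact myocardium -0.19 (33 of 53), sarcomere -0.04 (34 of 67) and Wnt and Notch signalling 0.09 (20 of 49). The transcription factor and compact myocardium lists share the 17 deep peaks of Prdm16 and the 4 of Rxra. Their values are therefore not independent, and no median was worked out without these peaks. Both LV libraries were above both RV libraries at 18 of the 93 deep peaks in transcription factor genes, and the reverse held at 11. In calcium handling and ion channel genes these counts were 22 and 12 of 86, in endothelium and endocardium genes 5 and 1 of 23, and in axon guidance and neuronal adhesion genes 16 and 24 of 94. At all 6135 deep peaks those shares were 19.0% and 17.6%, as given above.

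A few deep peaks stood apart in the relation of height to reads. Only 8 had a fold enrichment under 2, from 1.37 to 1.72, and all 8 lay in Sfi1 (5) and Tmem267 (3), which were named after their values were seen. They held medians of 75.5, 65, 66.5 and 100 reads in LV-A, LV-B, RV-A and RV-B, against 9, 5, 8 and 8 for all deep peaks. The genes also hold 2 (Sfi1) and 1 (Tmem267) other WT peaks that overlapped a knockout peak. Of the 33 WT peaks set aside in deep positions for such an overlap, 17 had a fold under 2, so that the count of 8 depends on that filter. Whether reads map uniquely to these genes was not tested. Chromosome X held 60 deep peaks (0.978%), at 1.80 per Mb of deep sequence, while the 19 autosomes ranged from 7.39 to 10.9 per Mb with a median of 8.32. Chromosome X held 1.91% of peaks at gene ends, 1.32% of those near gene ends, 1.53% of those outside genes and 1.35% of all WT peaks.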

How the data were processed

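PRDM16 ChIP-seq and input libraries, 14 samples in 8 groups, were made from mouse ventricles at E13.5. Per the submitters' processing notes, which state neither role nor order, the tools were MACS2 2.1.1.20160309, BWA 0.7.12-r1039, DESeq2 and HOMER, with builds mm10 and GRCm38. The pooling of replicates for the peak lists, the filters and the test of LV against RV are not stated there. The deposited peak lists hold a score, a column of the authors' fold enrichment (a ratio of ChIP to background) and a −log10 q per peak. The deposited LV against RV table holds the authors' normalized signal per ventricle, log2 of RV over LV, and p-values, raw and adjusted, for each of the 17587 WT peaks.

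The LV and RV values were the mean over libraries of whole reads multiplied by a library factor, plus 0.5 (0.744 and 1.47 in LV, 0.866 and 0.965 in RV), with exactly 1 solution at 100% of regions (tolerance 1e-07). Libraries recovered in this way carry no replicate number. The factors scale reads to the authors' normalized signal.

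Summits were placed by protein-coding genes of a RefSeq table (GRCm38.p6), with 21887 protein-coding genes, and overlap meant at least 1 bp. Density is the number of peaks over the length of sequence of the same class. limma 3.58.1 in R 4.3.3 was fitted to all regions on log2(normalized reads + 1), with the mean-variance trend option and Benjamini-Hochberg adjustment. It was also run on simulated reads with a preset spread, where changes were placed only in regions of at least 8 reads on average. That run cannot show how limma performs at deep peaks with fewer reads or a wider spread. The rest used Python 3.11.15 with pandas 2.3.3, numpy 2.4.6, matplotlib 3.10.9 and scipy 1.17.1. Motifs were searched in RefSeq start windows.

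The deep peaks, the 15 gene lists and the tests were chosen with earlier results of these data known. Named by rule were the 10 deep peaks of highest fold, the 8 genes with most deep peaks, up to 4 genes per list by highest fold, Prdm16, deep peaks called by limma, the 4 of smallest authors' p on each side, and the 2 peaks on each side of the distance limit. Some genes named by this rule are not reported here. Other genes, start-site genes and dense genes included, were named after their values were seen. Alternatives varied the distance, peak threshold, gene models, pseudocount, minimum of reads, scaling and libraries. The depth of whole-ventricle libraries is unknown, and peaks away from start sites were not searched for motifs.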

Additional observations from a re-analysis of the deposited data

How the results depend on the processing

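The number of deep peaks was 7114 at a distance of more than 5000 bp, 4777 beyond 20000 bp, 4309 at a −log10 q of at least 5, 6168 with knockout overlaps kept, 5300 with genes of all kinds used alike and 6127 at a fold of at least 2, a limit chosen after seeing the data. At a −log10 q of at least 5 the median fold was 4.65 and the density 5.85 per Mb. limma called 2 deep peaks where the authors' deposited table had 0. It called 1 at a pseudocount of 0.1 (Ptprn2), 7 at a pseudocount of 5, 5 with a mean of at least 8 reads, and 0 to 31 when a library was left out. The 0 came on leaving out RV-A or RV-B, and the 31 on leaving out LV-A. St18 had a limma adjusted p of 0.125 at a pseudocount of 0.1, and Tenm4 (0.0116) and Opcml (0.00722) passed at a pseudocount of 5. The median log2 RV over LV ranged from -0.047 to 0.042 when a library was left out. The LV minus RV difference in the share of reads, -0.401 percentage points, turned to 0.249 without the 1% of regions with most reads and to 0.257 without WT peaks of a fold under 2, with an exact permutation p of 1.0 in each case. List densities without the gene of most deep peaks, also chosen after seeing the data, moved by over 1.5 times in erythroid and immune genes only (10.7 to 6.70 per Mb). No paired analysis was possible because the recovered LV and RV libraries carry no replicate number. A median of 5 to 9 reads per deep peak limits single-peak comparisons.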
